A study of Mus musculus with 28 samples.

Results

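The genes of glycolysis, of pyruvate entry into the mitochondria and of glucose and lactate transport were followed in the left ventricle of neonatal mice after myocardial infarction (MI). A list of 37 such genes was matched by symbol to the 45318 genes of the count tables, and all 37 were found. The hearts came from Hsd:ICR(CD-1) mice, described as male in the study's methods. The left anterior descending coronary artery was ligated (MI) or a sham operation was done (SHAM) on postnatal day 1 or day 7, and RNA was taken from the left ventricular wall in the remote zone, away from the infarct, 3 or 21 days later. Groups are named by the operation and the follow-up. The day-1 groups 1d-SHAM + 3 and 1d-MI + 3 and the day-7 groups 7d-SHAM + 3 and 7d-MI + 3 held 4 libraries each. Their 21-day counterparts (1d-SHAM + 21 and 1d-MI + 21 for day 1, with 7d-SHAM + 21 and 7d-MI + 21 for day 7) held 3 each. The mice were therefore 4 or 10 days old at the short follow-up and 22 or 28 days old at the long one. Day 1 is the age at which the neonatal mouse heart is known to regenerate, and by day 7 this capacity is lost, so that the comparison of the MI response between the ages was the question of the design. Sham mice had the operation too, without ligation, and no unoperated heart is among the groups.

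In glycolysis, glucose enters the cell through carriers of the Slc2a family, is phosphorylated by hexokinase and is split and oxidised to pyruvate. Pyruvate is either reduced to lactate, which leaves through carriers of the Slc16a family, or enters the mitochondrion through the Mpc1-Mpc2 carrier and is oxidised by the pyruvate dehydrogenase complex, which the Pdk kinases switch off. The fetal heart relies on glucose and lactate, and after birth heart muscle turns to fatty acids. Many of the enzymes have a form typical of striated muscle (Pfkm, Pgam2, Eno3, Slc2a4) beside one made in most tissues (Pfkl, Pgam1, Eno1, Slc2a1).

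The 16 libraries of the 3-day follow-up held 33077962 to 51942648 counts each and the 12 of the 21-day follow-up 40514177 to 168550985. The 37 genes together took 0.459 to 0.775% of the counts of a library at 3 days and 0.146 to 1.14% at 21 days, and none was at 0 in the 3-day libraries. The kits and sequencers differed between the follow-ups, so counts were scaled within each, and levels at 3 and 21 days are set side by side without a test. Values are given in CPM, counts scaled to a common library total by edgeR's TMM method. The animal numbers in the labels begin with a prefix, and no prefix was shared between groups, so that whatever the prefix stands for and the group cannot be told apart. The libraries of 7d-SHAM + 3 all carried a single prefix, as did those of each 21-day group. In 1d-SHAM + 3, replicates 1 and 2 carried prefix 1078 and replicates 3 and 4 prefix 1103, and their levels of several of the genes lay apart. Ribosomal RNA genes, the mitochondrial ones included, took 2.9 and 9.26% of the counts under the first prefix and 16.9 and 22.6% under the second, and 28454 and 30025 genes were detected against 20612 and 20069. After MI on day 1, 27324 to 35932 genes were detected, and after MI on day 7, 21183 to 22316. The part of these measures in the differences was not tested. The summed level of 10 cardiomyocyte markers was 34400 to 37700 CPM in the day-1 shams, 20800 to 29600 after MI on day 1, 55100 to 60600 in the day-7 shams and 29500 to 32900 in 3 of the 4 libraries after MI on day 7. Replicate 3 of 7d-MI + 3 stood apart at 65100. In bulk tissue, fewer cells of a type and less RNA per cell cannot be told apart. The labels do not say whether each library is 1 animal, and p-values measure the spread between these libraries.

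At 3 days after MI on day 7, the remote myocardium had higher levels of 2 of 4 carriers, of 4 of 8 genes from hexokinase to aldolase and of the broadly expressed mutase Pgam1 and enolase Eno1. The muscle or heart forms Pfkm, Pgam2, Eno3 and Ldhb, both subunits of the mitochondrial pyruvate carrier and 4 of 5 genes of the pyruvate dehydrogenase complex were lower. Other broadly expressed enzymes (Hk1, Gpi1, Gapdh, Pgk1, Tpi1 and Pkm) and the muscle forms Aldoa and Slc2a4 were not called. The glucose carrier Slc2a1 and the lactate carrier Slc16a3 rose most, by 3.01 and 3.90 on the log2 scale, and the kinase Pdk4 fell most, by 2.76. Of the 37 genes, 10 were higher and 13 lower in 7d-MI + 3 than in 7d-SHAM + 3 at an adjusted p under 0.05 (edgeR quasi-likelihood test, Benjamini-Hochberg adjustment over all genes tested). Among all 20345 genes tested, 19.8% were called higher and 14.2% lower. The median log2 fold change was -0.122 over the 37 genes and 0.0823 over all genes. The libraries of the groups did not overlap for 13 of the genes in the upward and 12 in the downward direction, 35.1% and 32.4% of the list against 21.7% and 15.7% of all genes.

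After MI on day 1 fewer of the genes were called. In that comparison 4 of the 37 genes were higher in 1d-MI + 3 than in 1d-SHAM + 3 and 0 were lower, where 4.10% of all genes were called higher and 4.36% lower. They were Slc16a3, Slc2a1, Pfkfb3 and Pgam1, and each of them was also called higher after MI on day 7. The difference between the ages was tested itself, as the MI effect at day 7 minus that at day 1. It was called above 0 for 5 genes (Slc16a3, Aldoc, Slc2a1, Eno1 and Pdk3) and below 0 for another 5 (Pdk4, Pdhb, Pdha1, Mpc2 and Mpc1), against 9.01% and 4.07% of all genes. No test of the count of calls at an age against that at the other was made.

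Between the sham groups, 10 genes were higher and 5 lower in 7d-SHAM + 3 than in 1d-SHAM + 3, against 8.12% and 12.2% of all genes, and the median log2 fold change was 0.276 over the list and -0.129 over all genes. The mice compared are 10 and 4 days old. Between the infarcted groups, 12 genes were higher and 7 lower on day 7 than on day 1, against 19.4% and 23.5% of all genes, with a median of 0.148 against -0.128. Under upper-quartile scaling, which moved the median of all genes by -0.244 in that comparison, this split became 6 higher and 11 lower, and that of the difference between the ages became 5 above 0 and 11 below. These comparisons share groups with each other, and their values are given side by side below.

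**Figure D1:**
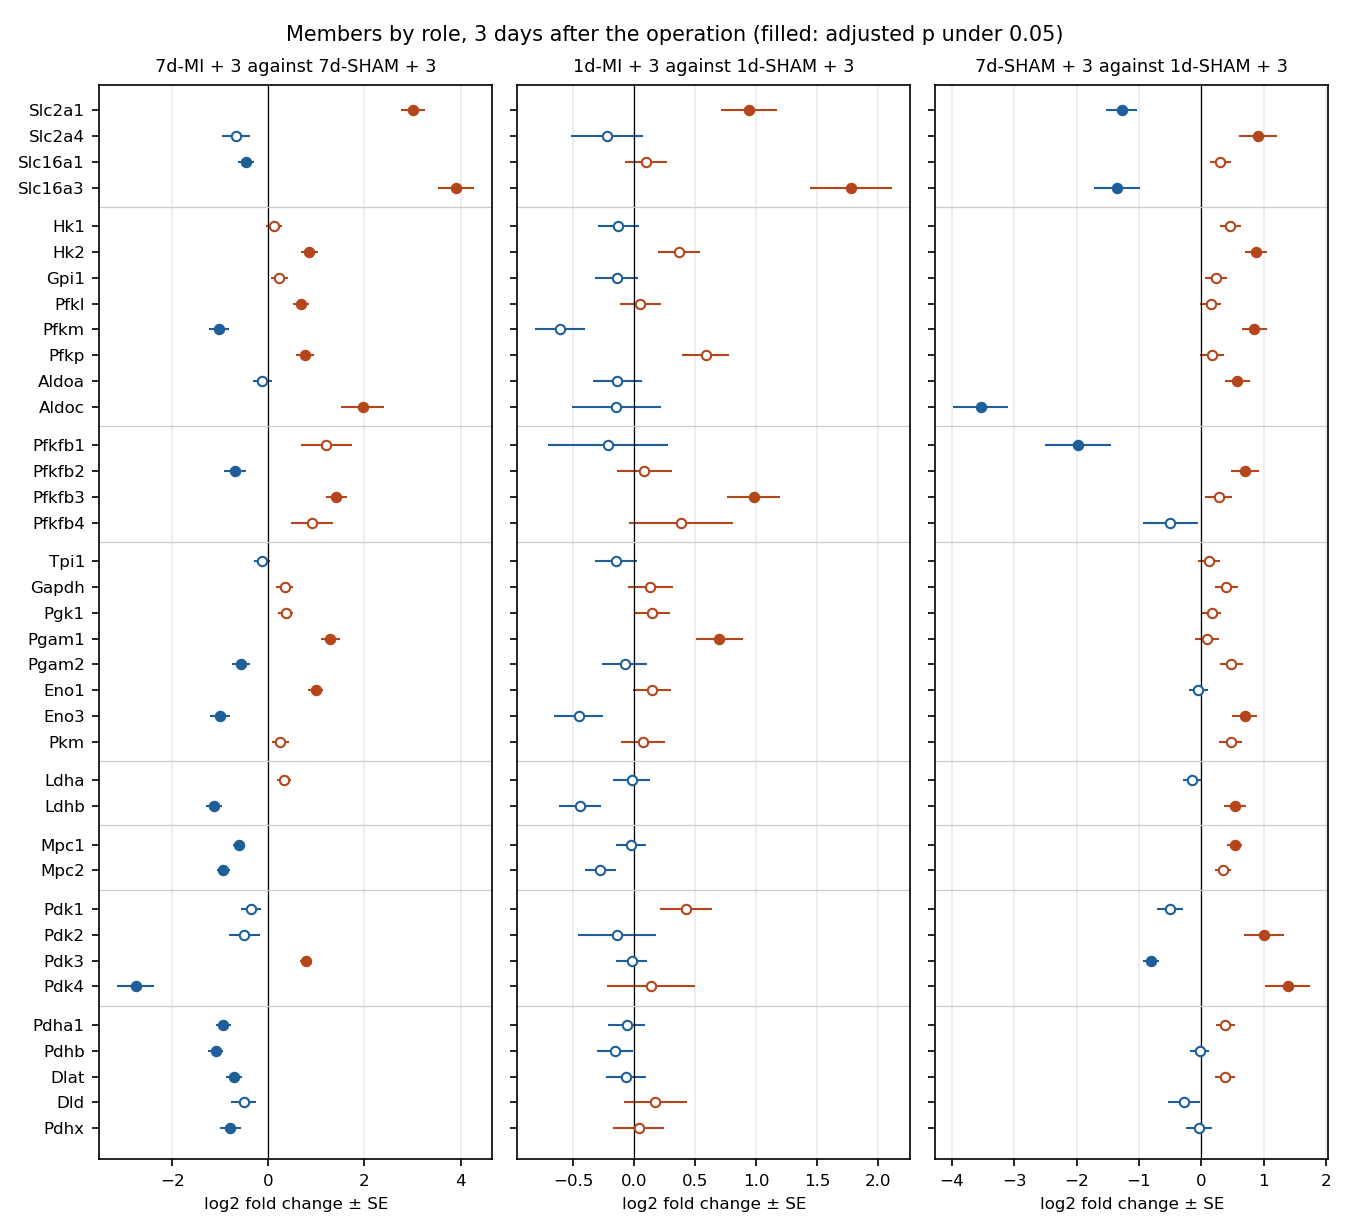
Log2 fold changes at 3 days of the 37 genes, grouped by role, for 7d-MI against 7d-SHAM, 1d-MI against 1d-SHAM and 7d-SHAM against 1d-SHAM. Points are edgeR estimates, bars are ± 1 SE and filled points have an adjusted p under 0.05. In the first panel 10 filled points lie to the right of 0 and 13 to the left, in the second 4 to the right, and in the third 10 to the right and 5 to the left.

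The promoters of the 4 genes called higher after MI at both ages, and of Pdk4, the gene that fell most after MI on day 7, are printed. Each run is the 250 bases before and 50 after an annotated start, 5′ to 3′, from RefSeq on GRCm38.p6. They were searched on both strands for ACGTG and GCGTG, cores that hypoxia-inducible factor binds, for the E-box CACGTG, which contains ACGTG, and for AAGGTCA, the site of estrogen-related receptors. Capitals mark the matches, and a match on the other strand appears as its reverse complement. Pfkfb3 has a pair of annotated starts.
Slc2a1, chr4:119108495-119108794, plus strand: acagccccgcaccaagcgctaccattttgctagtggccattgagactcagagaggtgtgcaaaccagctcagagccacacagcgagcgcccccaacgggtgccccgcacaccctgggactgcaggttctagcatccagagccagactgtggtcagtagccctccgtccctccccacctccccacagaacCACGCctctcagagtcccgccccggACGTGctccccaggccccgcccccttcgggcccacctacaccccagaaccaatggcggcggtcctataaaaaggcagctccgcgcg
Slc16a3, chr11:120948817-120949116, plus strand: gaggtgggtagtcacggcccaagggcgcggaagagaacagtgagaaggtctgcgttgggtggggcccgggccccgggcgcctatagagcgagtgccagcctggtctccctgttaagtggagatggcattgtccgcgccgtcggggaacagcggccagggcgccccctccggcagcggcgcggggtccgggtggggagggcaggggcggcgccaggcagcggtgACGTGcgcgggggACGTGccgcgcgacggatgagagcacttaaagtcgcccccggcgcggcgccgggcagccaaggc
Pfkfb3 inner start, chr2:11502041-11502340, minus strand: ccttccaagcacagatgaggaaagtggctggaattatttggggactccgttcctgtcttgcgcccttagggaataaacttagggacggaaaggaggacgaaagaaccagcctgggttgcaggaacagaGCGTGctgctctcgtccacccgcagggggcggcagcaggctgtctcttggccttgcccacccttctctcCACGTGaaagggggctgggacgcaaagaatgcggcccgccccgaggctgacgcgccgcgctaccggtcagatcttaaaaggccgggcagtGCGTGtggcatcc
Pfkfb3 outer start, chr2:11553880-11554179, minus strand: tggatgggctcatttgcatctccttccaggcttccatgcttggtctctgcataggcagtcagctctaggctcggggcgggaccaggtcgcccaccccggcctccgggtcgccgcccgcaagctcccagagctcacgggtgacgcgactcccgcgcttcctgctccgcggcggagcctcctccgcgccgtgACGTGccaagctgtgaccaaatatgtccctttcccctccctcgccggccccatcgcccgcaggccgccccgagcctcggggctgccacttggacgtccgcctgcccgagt
Pgam1, chr19:41911621-41911920, plus strand: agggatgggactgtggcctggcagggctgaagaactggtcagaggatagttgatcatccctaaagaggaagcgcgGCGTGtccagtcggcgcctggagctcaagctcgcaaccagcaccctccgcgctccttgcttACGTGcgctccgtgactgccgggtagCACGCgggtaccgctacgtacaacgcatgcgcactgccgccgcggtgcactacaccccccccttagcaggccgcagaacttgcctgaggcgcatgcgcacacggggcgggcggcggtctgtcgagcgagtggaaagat
Pdk4, chr6:5496229-5496528, minus strand: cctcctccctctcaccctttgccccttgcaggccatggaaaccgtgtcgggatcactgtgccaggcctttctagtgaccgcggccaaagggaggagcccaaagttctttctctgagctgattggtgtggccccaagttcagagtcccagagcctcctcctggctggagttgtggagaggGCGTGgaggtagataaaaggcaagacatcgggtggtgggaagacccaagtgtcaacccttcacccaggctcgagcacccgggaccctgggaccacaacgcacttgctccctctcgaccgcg

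Slc2a1 and Pgam1 each held 1 ACGTG, Slc16a3 held 2, and the inner and outer starts of Pfkfb3 held 2 and 1. Both ACGTG matches of the inner start are a single E-box read from each strand. Pdk4 held none of these and 1 GCGTG, a core that is also marked, on 1 strand or the other, in Slc2a1, Pgam1 and the inner start of Pfkfb3. In all, 36 of the 37 genes had a RefSeq promoter, and together they had 56. Of these, 22 held ACGTG, 31 GCGTG, 6 CACGTG and 3 AAGGTCA. Of the 32851 promoters in the table, 19.6, 32.4, 7.15 and 4.72% held these motifs in the same order. Promoters of the same gene can overlap, and a match describes these letters, not a bound site.

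Among the carriers, Slc2a1, which carries glucose in most cells independently of insulin, lies on chromosome 4 at 119108711-119137983 on the plus strand (GRCm38). Its level was 5.89, 4.4, 4.78 and 3.26 CPM in the day-1 shams, 7.48, 10.4, 6.69 and 10.8 after MI on day 1, 1.22, 2.04, 1.95 and 2.33 in the day-7 shams and 13, 20.7, 11 and 16.2 after MI on day 7. Every 7d-MI + 3 library lay above every library of the other groups, every 7d-SHAM + 3 library lay below them, and the day-1 groups did not overlap either. The log2 fold change was 3.01 ± 0.25 (SE), adjusted p = 6.12e-08 after MI on day 7 and 0.94 ± 0.23 (SE), adjusted p = 0.0186 after MI on day 1, and the difference of these effects was 2.07 ± 0.33 (SE), adjusted p = 0.000708. In the sham groups Slc2a1 fell with age, at -1.28 ± 0.24 (SE), adjusted p = 0.00115, and it was higher in 7d-MI + 3 than in 1d-MI + 3 by 0.79 ± 0.23 (SE), adjusted p = 0.00879.

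Slc16a3, which exports lactate from glycolytic cells, lies on chromosome 11 at 120948480-120960868 on the plus strand. It was measured at 2.37, 2.69, 1.86 and 0.533 CPM in the day-1 shams, 5.66, 6.28, 6.05 and 7.92 after MI on day 1, 0.544, 0.867, 0.461 and 1.09 in the day-7 shams and 7.93, 14.7, 9.07 and 12.8 after MI on day 7. Infarcted and sham libraries were apart at both ages. It rose by 3.90 ± 0.38 (SE), adjusted p = 4.44e-07 after MI on day 7 and by 1.78 ± 0.34 (SE), adjusted p = 0.00506 after MI on day 1, a difference of 2.13 ± 0.49 (SE), adjusted p = 0.00836. It was lower in the older sham group, at -1.35 ± 0.37 (SE), adjusted p = 0.0165.

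Slc2a4, the insulin-responsive glucose carrier of muscle and fat, lies on chromosome 11 at 69942539-69948188 on the minus strand and went the other way with age. It stood at 9.49, 10.4, 13.9 and 13 CPM in the day-1 shams, 12.8, 7.39, 11.9 and 7.88 after MI on day 1, 19.7, 22.2, 20.2 and 25.4 in the day-7 shams and 9.36, 9.19, 26.8 and 9.59 after MI on day 7. The sham groups did not overlap (7d-SHAM against 1d-SHAM 0.91 ± 0.30 (SE), adjusted p = 0.0408). Replicates 1, 2 and 4 of 7d-MI + 3 were below all of their shams and replicate 3 was above all of them, and the comparison of these groups gave -0.67 ± 0.30 (SE), adjusted p = 0.0919, which is not called. Without that replicate it was -1.21 (adjusted p = 6.64e-05). Slc16a1, the carrier that takes up lactate in the heart, was 146, 128, 115 and 76.8 CPM in the day-1 shams, 138, 103, 139 and 117 after MI on day 1, 137, 142, 150 and 145 in the day-7 shams and 92.9, 90.2, 133 and 98.2 after MI on day 7. It was lower in 7d-MI + 3 at -0.47 ± 0.17 (SE), adjusted p = 0.0373, a call that ended (adjusted p up to 0.139) on leaving out any 1 library of the comparison other than 7d-MI + 3 replicate 3.

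From hexokinase to aldolase, 4 of 8 genes were higher and 1 lower in 7d-MI + 3 than in 7d-SHAM + 3. Hk2, the hexokinase of insulin-sensitive tissues, was 25.2, 20.9, 17.7 and 15.9 CPM in the day-1 shams, 28.7, 22.8, 28.9 and 22.6 after MI on day 1, 35, 34.1, 38.8 and 38.3 in the day-7 shams and 56.4, 57.5, 95.5 and 54.2 after MI on day 7. Its 7d-MI + 3 libraries lay above all others, and those of 7d-SHAM + 3 above both day-1 groups. Its log2 fold change came to 0.85 ± 0.18 (SE), adjusted p = 0.000755 for 7d-MI against 7d-SHAM, 0.87 ± 0.18 (SE), adjusted p = 0.00186 for 7d-SHAM against 1d-SHAM and 1.36 ± 0.18 (SE), adjusted p = 1.05e-05 for 7d-MI against 1d-MI. The rise after MI on day 1 was 0.37 (adjusted p = 0.181) and is not called. Hk1, the hexokinase found in most tissues, was called only between the infarcted groups (0.71 ± 0.17 (SE), adjusted p = 0.00247) and gave 0.12 (adjusted p = 0.634) after MI on day 7. Glucose phosphate isomerase, Gpi1, likewise gave 0.61 ± 0.18 (SE), adjusted p = 0.00945 between the infarcted groups and 0.23 (adjusted p = 0.354) after MI on day 7.

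The phosphofructokinases, which commit sugar to glycolysis, moved in opposite directions. Pfkm, the muscle form, was 83.1, 85.6, 116 and 122 CPM in the day-1 shams, 72, 48.5, 89.2 and 57.4 after MI on day 1, 152, 188, 180 and 211 in the day-7 shams and 82.8, 66.8, 129 and 80.4 after MI on day 7. Every 7d-MI + 3 library was below every 7d-SHAM + 3 library, and the older shams were above the younger ones. Pfkm fell by 1.03 ± 0.21 (SE, adjusted p = 0.000606) after MI on day 7 and was higher in the older shams by 0.85 ± 0.21 (SE), adjusted p = 0.00723. Pfkl, the liver form, was 36.8, 38.2, 43 and 31 CPM in the day-1 shams, 31.9, 29.6, 50.3 and 42.4 after MI on day 1, 31.2, 45.4, 40.4 and 48.4 in the day-7 shams and 57.9, 65.5, 76.6 and 66 after MI on day 7. It was higher in 7d-MI + 3 without overlap with any other group, by 0.68 ± 0.17 (SE), adjusted p = 0.00337 over 7d-SHAM + 3 and 0.79 ± 0.17 (SE), adjusted p = 0.0012 over 1d-MI + 3. Pfkp, the platelet form, was higher after MI on day 7 at 0.76 ± 0.19 (SE), adjusted p = 0.00386, and after MI on day 1 gave 0.58 (adjusted p = 0.0596).

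Aldolase splits fructose 1,6-bisphosphate. Aldoa, the muscle form, was 485, 509, 943 and 780 CPM in the day-1 shams, 646, 439, 729 and 655 after MI on day 1, 797, 1100, 1010 and 1130 in the day-7 shams and 942, 932, 839 and 1000 after MI on day 7, and it was called between the sham groups (0.57 ± 0.20 (SE), adjusted p = 0.0458) and between the infarcted groups (0.59 ± 0.20 (SE), adjusted p = 0.0213), while the MI effects were -0.12 (adjusted p = 0.692) on day 7 and -0.14 (adjusted p = 0.665) on day 1. Aldoc, the brain form, was far lower, at 1.57, 2.22, 3.12 and 1.73 CPM in the day-1 shams, 1.86, 2.41, 1.39 and 2.16 after MI on day 1, 0.068, 0.124, 0.256 and 0.271 in the day-7 shams and 0.408, 1.12, 0.548 and 0.824 after MI on day 7. The 7d-SHAM + 3 libraries lay below all the others. Aldoc gave -3.53 ± 0.44 (SE), adjusted p = 2.32e-05 between the shams, 1.96 ± 0.44 (SE), adjusted p = 0.00155 after MI on day 7, and -1.43 ± 0.38 (SE), adjusted p = 0.0056 between the infarcted groups, and the difference of the MI effects was 2.11 ± 0.57 (SE), adjusted p = 0.0191. The counts behind it are small, and a background rate taken from 1261 olfactory and vomeronasal receptor genes equals 13 to 63.9% of the Aldoc count in the 7d-SHAM + 3 libraries. Subtraction of that background ended none of these calls. With the animal number prefix as a random block in limma-voom, the calls after MI on day 7 (adjusted p = 0.126) and for the difference of the MI effects (adjusted p = 0.214) ended.

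The Pfkfb enzymes make and break fructose 2,6-bisphosphate, the main activator of phosphofructokinase. Pfkfb3, the inducible form with high kinase activity, lies on chromosome 2 at 11471433-11554077 on the minus strand. It was 5.49, 4.14, 3.37 and 3.4 CPM in the day-1 shams, 11.1, 7.19, 5.86 and 8.22 after MI on day 1, 4.96, 4.33, 6.63 and 3.96 in the day-7 shams and 14.2, 14.2, 10.4 and 14.2 after MI on day 7. The infarcted libraries were above the shams at both ages. It rose by 1.41 ± 0.22 (SE), adjusted p = 4.09e-05 after MI on day 7 and 0.98 ± 0.22 (SE), adjusted p = 0.011 after MI on day 1, and stood higher in 7d-MI + 3 than in 1d-MI + 3 by 0.71 ± 0.21 (SE), adjusted p = 0.011. The difference of the MI effects, 0.43 (adjusted p = 0.384), is not called.

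Pfkfb2, the heart form, was 8.92, 7, 4.21 and 5.46 CPM in the day-1 shams, 8.25, 6.1, 7.13 and 5.67 after MI on day 1, 10.4, 10.7, 8.86 and 11.8 in the day-7 shams and 5.85, 5.3, 9.5 and 5.23 after MI on day 7. It was higher in the older shams (0.70 ± 0.22 (SE), adjusted p = 0.033) and lower after MI on day 7 (-0.69 ± 0.22 (SE), adjusted p = 0.0209), where replicate 3 of 7d-MI + 3 reached the range of the shams. The second call ended (adjusted p up to 0.0821) when replicate 2 or 4 of the day-7 shams was left out, or replicate 1, 2 or 4 of 7d-MI + 3. Pfkfb1 was lower in the older shams (-1.98 ± 0.53 (SE), adjusted p = 0.0134) at levels of 0.0512 to 1.17 CPM, where the receptor-gene background came to as much as 80.2% of the count in 7d-SHAM + 3. Pfkfb4, at 0.326 to 1.86 CPM, was not called in any of the 5 comparisons.

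From triose phosphate to pyruvate, the mutase and enolase forms split as the phosphofructokinases did. Pgam1, the broadly expressed phosphoglycerate mutase, lies on chromosome 19 at 41911923-41918660 on the plus strand. It was 6.17, 5.6, 6.78 and 5.33 CPM in the day-1 shams, 8.17, 6.83, 10.6 and 13.1 after MI on day 1, 5, 6.16, 6.48 and 7.68 in the day-7 shams and 14.2, 18.3, 12.7 and 17 after MI on day 7. Infarcted libraries were above the shams at both ages. It rose by 1.29 ± 0.19 (SE), adjusted p = 3.01e-05 after MI on day 7 and by 0.70 ± 0.19 (SE), adjusted p = 0.0312 after MI on day 1, and was 0.68 ± 0.19 (SE), adjusted p = 0.00704 between the infarcted groups. Pgam2, the muscle form, fell after MI on day 7, at -0.56 ± 0.18 (SE), adjusted p = 0.0216. That call ended (adjusted p up to 0.0899) when replicate 2, 3 or 4 of the day-7 shams was left out, or replicate 2 of 7d-MI + 3.

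Eno1, the enolase of most tissues, was 22.9, 22.2, 24.7 and 17.9 CPM in the day-1 shams, 24.4, 19.1, 22.4 and 31.1 after MI on day 1, 15.6, 23, 22.9 and 23.3 in the day-7 shams and 38.3, 43.5, 42 and 44.6 after MI on day 7. The 7d-MI + 3 libraries were above all others, while the other groups overlapped. It rose by 0.99 ± 0.16 (SE), adjusted p = 5.57e-05 after MI on day 7, was 0.80 ± 0.16 (SE), adjusted p = 0.000548 between the infarcted groups, and its MI effects differed by 0.85 ± 0.22 (SE), adjusted p = 0.0151. Eno3, the muscle enolase, was 320, 302, 519 and 566 CPM in the day-1 shams, 338, 224, 400 and 282 after MI on day 1, 579, 735, 692 and 759 in the day-7 shams and 359, 306, 390 and 323 after MI on day 7. Infarcted and sham libraries of day 7 did not overlap, and the 1d-SHAM + 3 libraries of prefix 1078 were lower than those of prefix 1103. Eno3 fell by 1.00 ± 0.20 (SE, adjusted p = 0.000569) after MI on day 7 and was 0.70 ± 0.20 (SE), adjusted p = 0.0197 between the shams.

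The other enzymes of this stretch were called only between the infarcted groups, if at all. Pkm, pyruvate kinase, gave 0.65 ± 0.18 (SE), adjusted p = 0.00728 in 7d-MI + 3 against 1d-MI + 3, Gapdh gave 0.60 ± 0.18 (SE), adjusted p = 0.0126 and Pgk1 gave 0.38 ± 0.15 (SE), adjusted p = 0.0466. The same genes gave 0.25 (adjusted p = 0.315), 0.34 (adjusted p = 0.169) and 0.36 (adjusted p = 0.0685) for MI on day 7. Tpi1, triose phosphate isomerase, was not called in any comparison. Genes with near-identical copies may gain or lose reads to them. The share of 75-base windows found also in other annotated genes was 52.8% for Pgk1, 34.9% for Pgam1, 23.0% for Eno1, 22.6% for Gapdh, 21.3% for Mpc1 and 17.8% for Pkm. Adding the counts of the copies named after a gene, and of Eno1b to Eno1, changed the number of calls in no comparison. For Gapdh, whose windows recur in 121 other genes, only Gapdh-ps14 and Gapdh-ps15 were added, and for Pkm none. Sharing of reads with genes of other names was not tested.

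Lactate dehydrogenase interconverts pyruvate and lactate, and Ldhb is the form typical of the heart. Ldhb was 377, 387, 524 and 590 CPM in the day-1 shams, 345, 267, 440 and 329 after MI on day 1, 636, 705, 649 and 729 in the day-7 shams and 310, 252, 381 and 302 after MI on day 7. All 7d-MI + 3 libraries were below all 7d-SHAM + 3 libraries, and the shams of day 7 were above those of day 1. It fell by 1.13 ± 0.17 (SE, adjusted p = 4.24e-05) after MI on day 7 and was 0.53 ± 0.17 (SE), adjusted p = 0.0345 between the shams. Ldha, the form typical of glycolytic tissue, gave 0.33 (adjusted p = 0.103) after MI on day 7 and -0.02 (adjusted p = 0.941) after MI on day 1, and is not called.

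Both subunits of the mitochondrial pyruvate carrier were lower after MI on day 7. Mpc1 was 57.8, 51.8, 61.9 and 62.5 CPM in the day-1 shams, 64, 49.2, 59.5 and 56.7 after MI on day 1, 73.4, 97.9, 81.3 and 85.5 in the day-7 shams and 60.2, 50.3, 54.7 and 55.7 after MI on day 7. The 7d-SHAM + 3 libraries stood above those of every other group. Its log2 fold changes were -0.61 ± 0.12 (SE), adjusted p = 0.000521 after MI on day 7 and 0.53 ± 0.12 (SE), adjusted p = 0.00476 between the shams, and the MI effects differed by -0.59 ± 0.17 (SE), adjusted p = 0.0283. Mpc2 was 53.6, 42.6, 55.6 and 63.7 CPM in the day-1 shams, 46.6, 40, 49.1 and 42 after MI on day 1, 59.8, 72.8, 66 and 76.2 in the day-7 shams and 35.1, 34.8, 38.8 and 35.1 after MI on day 7. The 7d-MI + 3 libraries stood below all others. Mpc2 gave -0.94 ± 0.13 (SE), adjusted p = 1.3e-05 after MI on day 7 and a difference of the MI effects of -0.66 ± 0.18 (SE), adjusted p = 0.0204.

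The 4 pyruvate dehydrogenase kinases each had a pattern of their own. Pdk4, the kinase that fasting and fatty acids raise in muscle and heart, lies on chromosome 6 at 5483351-5496309 on the minus strand. It was 197, 224, 100 and 216 CPM in the day-1 shams, 111, 192, 282 and 223 after MI on day 1, 439, 666, 556 and 254 in the day-7 shams and 36, 73.7, 68.4 and 105 after MI on day 7. The 7d-MI + 3 libraries were below nearly all others, with 105 in replicate 4 against 100 in the lowest 1d-SHAM + 3 library. Pdk4 gave -2.76 ± 0.38 (SE), adjusted p = 5.03e-05 after MI on day 7 and -1.51 ± 0.37 (SE), adjusted p = 0.00439 between the infarcted groups, while after MI on day 1 it gave 0.13 (adjusted p = 0.828), and the difference of the MI effects was -2.89 ± 0.52 (SE), adjusted p = 0.0025. Between the shams it was 1.38 ± 0.37 (SE), adjusted p = 0.017.

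Pdk3 was 18.7, 15.5, 19.9 and 17.5 CPM in the day-1 shams, 15.1, 18.9, 16.6 and 20 after MI on day 1, 9.59, 11, 9.58 and 10.8 in the day-7 shams and 17.1, 18.9, 15.7 and 18.6 after MI on day 7. The 7d-SHAM + 3 libraries lay below those of the other 3 groups, which overlapped each other. Pdk3 gave -0.81 ± 0.13 (SE), adjusted p = 0.000238 between the shams, 0.78 ± 0.13 (SE), adjusted p = 9.03e-05 after MI on day 7 and -0.02 (adjusted p = 0.93) after MI on day 1, a difference of the MI effects of 0.80 ± 0.18 (SE), adjusted p = 0.00669. Between the infarcted groups Pdk1 was lower at day 7, at -1.29 ± 0.21 (SE), adjusted p = 0.000123, and Pdk2 was higher in 7d-SHAM + 3 than in 1d-SHAM + 3, at 1.01 ± 0.32 (SE), adjusted p = 0.0366. Neither passed after MI, at -0.36 (adjusted p = 0.204) and -0.50 (adjusted p = 0.252) on day 7. Without replicate 3 of 7d-MI + 3, which held 23.7 CPM of Pdk2 against 6.38 to 9.18 in the others, Pdk2 gave -1.10 (adjusted p = 0.000285).

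In the pyruvate dehydrogenase complex, 4 of 5 genes were lower after MI on day 7. Pdhb, which codes for the beta chain of the first enzyme, was 322, 314, 228 and 218 CPM in the day-1 shams, 238, 221, 280 and 230 after MI on day 1, 256, 264, 248 and 297 in the day-7 shams and 110, 112, 155 and 122 after MI on day 7. The 7d-MI + 3 libraries were below those of every other group. Pdhb gave -1.09 ± 0.15 (SE), adjusted p = 1.48e-05 after MI on day 7, -0.96 ± 0.15 (SE), adjusted p = 7.19e-05 between the infarcted groups and -0.93 ± 0.21 (SE), adjusted p = 0.00713 for the difference of the MI effects. Pdha1, the alpha chain of the same enzyme, was 602, 559, 467 and 468 CPM in the day-1 shams, 516, 414, 607 and 474 after MI on day 1, 701, 677, 638 and 711 in the day-7 shams and 332, 301, 462 and 330 after MI on day 7. It gave -0.94 ± 0.15 (SE), adjusted p = 7.64e-05, -0.50 ± 0.15 (SE), adjusted p = 0.0128 and -0.88 ± 0.21 (SE), adjusted p = 0.0108 in the same comparisons, and the infarcted and sham libraries of day 7 did not overlap.

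Pdhx, which tethers the third enzyme to the core, was 112, 107, 62.3 and 56.5 CPM in the day-1 shams, 91.4, 72, 108 and 75.2 after MI on day 1, 81.1, 86.5, 78.9 and 82.6 in the day-7 shams and 47.6, 35.2, 64.5 and 43.5 after MI on day 7. It was lower after MI on day 7 (-0.79 ± 0.21 (SE), adjusted p = 0.00667) and, between the infarcted groups, in the day-7 one (-0.86 ± 0.21 (SE), adjusted p = 0.00331). Dlat, the core acetyltransferase, gave -0.71 ± 0.16 (SE), adjusted p = 0.00208 after MI on day 7. Dld, the third enzyme, which other dehydrogenases use as well, gave -0.51 (adjusted p = 0.141) there and -0.96 ± 0.26 (SE), adjusted p = 0.00671 between the infarcted groups. The 1d-SHAM + 3 libraries of prefix 1078 held 654 and 618 CPM of Dld and those of prefix 1103 held 302 and 308, so this group has no common level of the gene.

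**Figure D2:**
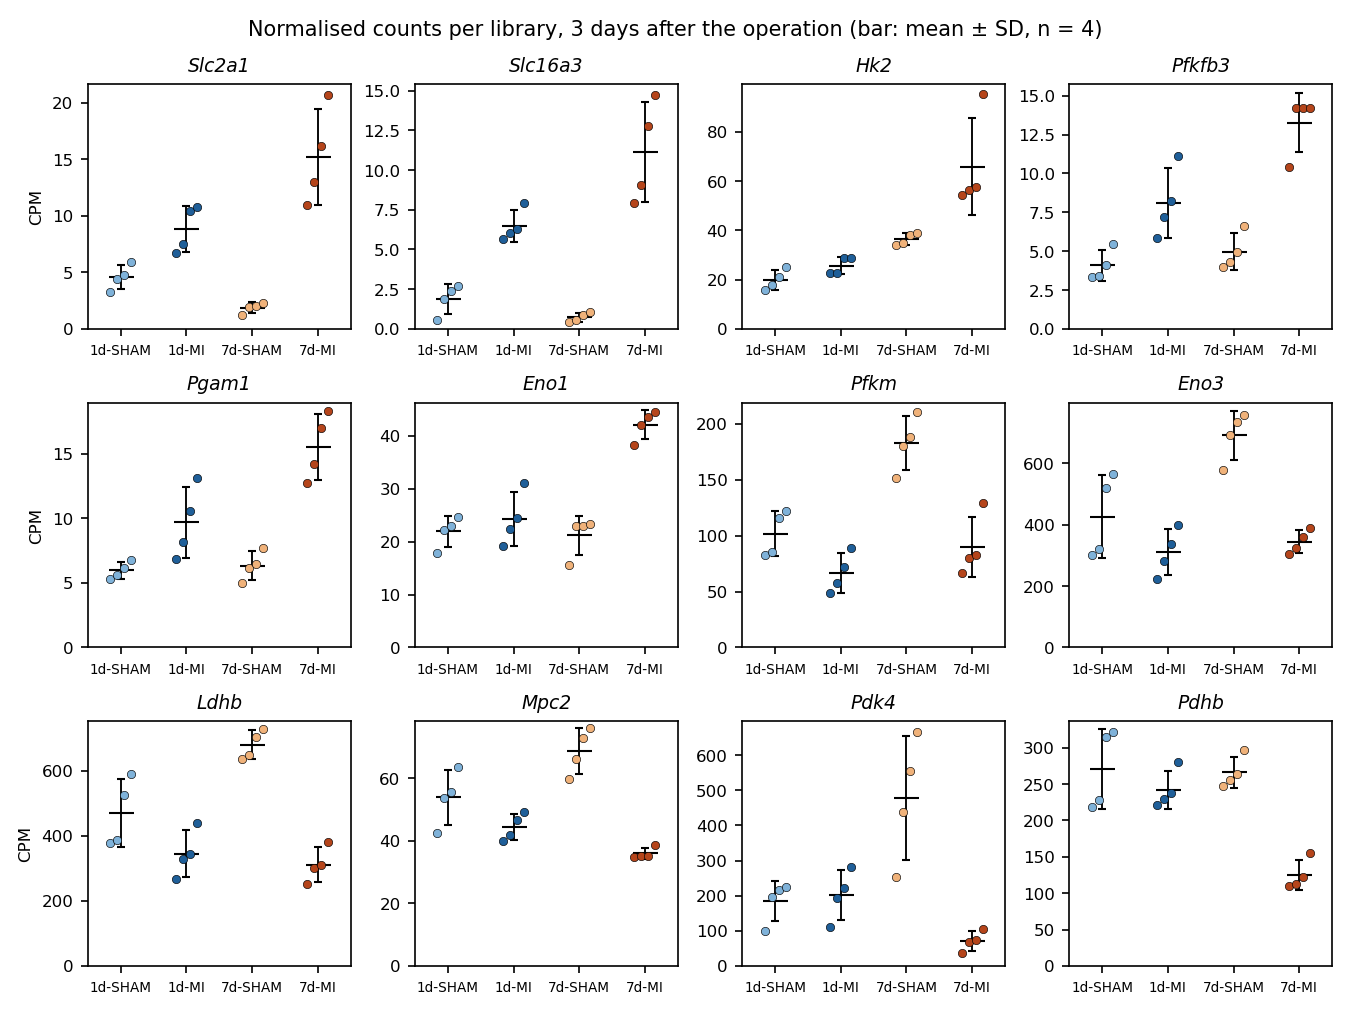
CPM at 3 days in every library of the 4 groups for Slc2a1, Slc16a3, Hk2, Pfkfb3, Pgam1, Eno1, Pfkm, Eno3, Ldhb, Mpc2, Pdk4 and Pdhb. Points are libraries and bars are the mean ± SD (n = 4). Slc2a1 reached 11 to 20.7 CPM in 7d-MI + 3 against 1.22 to 2.33 in 7d-SHAM + 3, while Pdhb was at 110 to 155 against 248 to 297.

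The calls differed in how firmly they stood. The animal number prefix was fitted as a random block in limma-voom, so that both the method and the block differ from the edgeR fit. With the animal number prefix as a random block, the difference between the ages was no longer called for Slc16a3 (adjusted p = 0.132), Eno1 (0.0803), Aldoc (0.214), Mpc1 and Mpc2, and the effect of MI on day 1 no longer for Slc2a1, Pfkfb3 and Pgam1 (up to 0.121). Between the shams, only Aldoc, Hk2, Pdk3, Pfkm and Mpc1 passed under that block, and after MI on day 7 the calls of Slc16a1, Pgam2 and Aldoc were lost. Of the 23 calls for MI on day 7, 19 were lost under none of the alternatives, and of the 19 between the infarcted groups 12 were lost under none. Those numbers were 4 of 10 for the difference between the ages (Pdk3, Slc2a1, Pdk4 and Pdhb), 3 of 15 between the shams (Pdk3, Hk2 and Aldoc) and 1 of 4 for MI on day 1 (Slc16a3). All 7d-SHAM + 3 libraries carried prefix 1075, so no alternative could vary the prefix of that group. After MI on day 1, Slc2a1 lost its call (adjusted p up to 0.066) without replicate 4 of the shams, or replicate 2 or 4 of the infarcted group, and Pgam1 (up to 0.115) without replicate 1, 3 or 4 of the shams, or replicate 4 of the infarcted group. Between the shams, 8 calls were lost on leaving out 1 library, with adjusted p up to 0.154. Omission of 1d-SHAM + 3 replicate 1 ended those of Pdk4, Ldhb, Aldoa, Slc2a4, Eno3, Pdk2 and Slc16a3, and omission of replicate 2 the same ones with Pfkfb2 in place of Pdk4. Omission of 1d-SHAM + 3 replicate 3 ended that of Pfkfb2, and of replicate 4 those of Pfkfb2 and Slc2a4. Each 7d-SHAM + 3 library, left out in turn, ended those of Ldhb, Slc2a4 and Pdk2, and replicates 2, 3 and 4 each ended that of Aldoa. Pfkfb2 was lost with replicate 1, 2 or 4, Eno3 with 2 or 4, Pdk4 with 2 or 3 and Slc16a3 with 1 or 3. With only the 1d-SHAM + 3 libraries of prefix 1103 in that comparison, 5 of the 37 genes were called in place of 15, 2 higher and 3 lower. With only those of prefix 1078, calls were added for Gapdh (0.85, adjusted p = 0.00231), Tpi1, Gpi1, Pkm, Pgam2 and Mpc2, all higher, and for Dld, lower. Those of Pfkfb2, Pdk4 and Slc2a4 were lost, so the calls between the shams depend on the prefix used. Between the infarcted groups, Aldoa was lost without 1d-MI + 3 replicate 2 (adjusted p = 0.0779), Pdha1 (up to 0.0597) without replicate 3 of 1d-MI + 3, or replicate 2 of 7d-MI + 3, and Pgk1 without replicate 1 or 2 of 1d-MI + 3 or replicate 1, 2 or 4 of 7d-MI + 3 (up to 0.142). For the difference between the ages, Aldoc was lost without 7d-MI + 3 replicate 2 (adjusted p = 0.0514) and Mpc2 (up to 0.0649) without replicate 2 of the day-1 shams, replicate 1 of 1d-MI + 3, or replicate 2 or 4 of a day-7 group. Mpc1 was lost (up to 0.103) without any of those, replicate 1 of the day-1 shams, replicate 3 of 1d-MI + 3, or replicate 3 of the day-7 shams.

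Marker genes of other cells moved with the infarct. The summed level of 9 macrophage and neutrophil markers was 28.7 to 40.5 CPM in the day-1 shams, 68.2 to 162 after MI on day 1, 52.8 to 67.3 in the day-7 shams and 254 to 430 after MI on day 7, and 9 of the 9 were called higher after MI on day 7 and 7 after MI on day 1. That of 8 fibroblast markers was 2400 to 3060, 1800 to 3400, 3560 to 3990 and 6170 to 7020 CPM in the same order, and 6 were called higher and 2 lower after MI on day 7. Of the 10 cardiomyocyte markers, 7 were called lower after MI on day 7 and 3 after MI on day 1, and 6 were called higher in the older shams. Between the infarcted groups, 4 of them were higher and 3 lower in 7d-MI + 3, against 19.4% and 23.5% of all genes. Among all genes, 19.8% were called higher and 14.2% lower after MI on day 7, 4.10% and 4.36% after MI on day 1, and 8.12% higher in the older shams. The 6 atrial markers, which include Nppa, a gene that stressed ventricle also raises, summed to 42.8 to 322, 2260 to 4180, 103 to 164 and 745 to 2240 CPM. Endothelial markers summed to 925 to 1030 CPM in 7d-SHAM + 3 and 591 to 706 in 7d-MI + 3. The part of these cells in the changes of the 37 genes was not tested.

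Replicate 3 of 7d-MI + 3, singled out after its values were seen, had a cardiomyocyte marker sum of 65100 CPM, against 55100 to 60600 in the shams. In it Slc2a1 was at 11 and Slc16a3 at 9.07 CPM, above every 7d-SHAM + 3 library. Ldhb at 381, Eno3 at 390, Pfkm at 129, Mpc2 at 38.8, Pdk4 at 68.4 and Pdhb at 155 CPM were below every 7d-SHAM + 3 library. Slc2a4, Pdk2 and Hk2 were higher in it than in every other library of the 3-day follow-up. Without it, 11 of the 37 genes were called higher and 16 lower after MI on day 7, beside 3620 higher and 2655 lower among 22092 genes tested, where all libraries gave 4024 and 2886 among 20345. The additions were Ldha (0.44, adjusted p = 0.0348), Slc2a4, Pdk2 and Dld (-0.77, adjusted p = 0.0275).

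**Figure D3:**
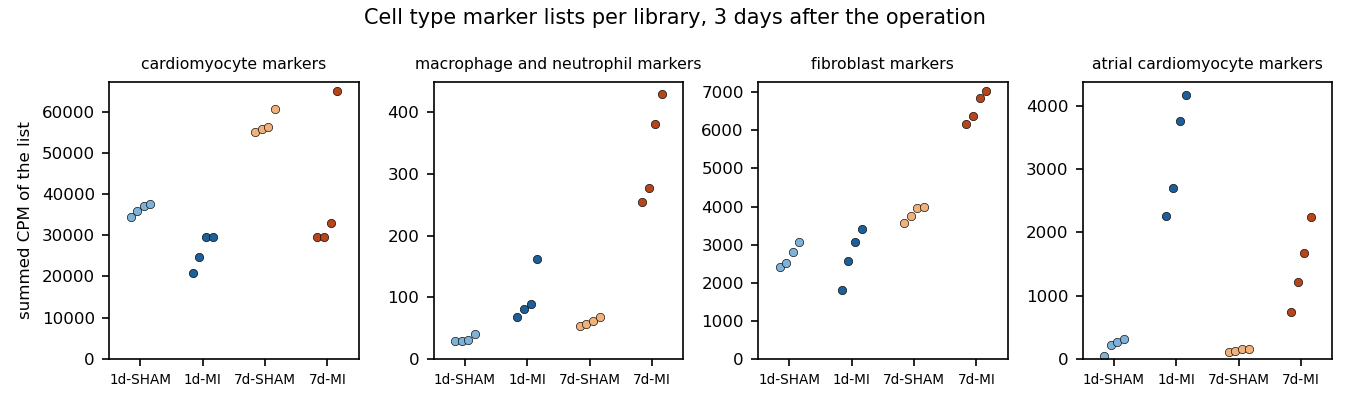
Summed CPM of the cardiomyocyte, macrophage and neutrophil, fibroblast and atrial marker lists in each 3-day library. Points are libraries (n = 4 per group). The macrophage and neutrophil sum is 254 to 430 in 7d-MI + 3 and 52.8 to 67.3 in 7d-SHAM + 3, and replicate 3 of 7d-MI + 3 stands apart in the cardiomyocyte panel at 65100.

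Levels can be set between genes per kilobase of gene length, where the length is the one implied by the deposited CPM and RPKM columns. It was 840 bases for Pgam2, 1570 for Ldhb, 4133 for Gapdh and 5379 for Eno1. The order of the genes depends on these lengths, whose derivation is not stated. In 7d-SHAM + 3 the highest were Ldhb at 433 ± 28.2 CPM per kb (mean ± SD, n = 4), Pgam2 at 422 ± 56.6, Eno3 at 397 ± 46, Aldoa at 367 ± 54.9 and Pkm at 328 ± 61.9, neighbours whose means lie within their SDs. In 7d-MI + 3 Pkm led at 390 ± 27.2 CPM per kb, followed by Aldoa at 337 ± 24.5, Pgam2 at 286 ± 35.4 and Eno3 and Ldhb, both at 198. Slc2a4 lay at 2.87 to 6.29 CPM per kb in the group means at 3 days and at 89.7 to 160 at 21 days, a gap measured across kits and scalings that was not tested.

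The balance of paired forms was measured as the log2 ratio of their counts per kilobase within each library, which no scaling between libraries can move. The level of a ratio depends on the gene lengths used, while its difference between groups does not. For 14 pairs and 4 comparisons at 3 days, exact two-sided permutation tests gave 0 of 56 ratios past an adjusted p under 0.05. With 4 libraries against 4 the smallest p possible is 0.0286, which 29 of the 56 reached, and its adjusted value was 0.0552. In 7d-MI + 3 against 7d-SHAM + 3, the libraries of the groups did not overlap for 13 of the 14 pairs. The exception was Pdk2 to Pdk1. Among all single genes, the libraries of these groups were apart for 21.7% upward and 15.7% downward. Some pairs share a gene, as Pfkm and Pdk4 do, and the pairs were chosen with earlier results known. The share of other gene pairs that lie apart was not computed for any comparison, so these counts have no reference.

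Slc2a4 stood to Slc2a1 at a ratio of 1.32, 1.93, 2.37 and 3.25 in the day-1 shams, 1.4, 0.585, 1.46 and 0.601 after MI on day 1, 13, 8.86, 8.48 and 8.86 in the day-7 shams and 0.589, 0.364, 2 and 0.486 after MI on day 7. The mean log2 ratio was thus 3.27 ± 0.29 (SD) in 7d-SHAM + 3 and -0.57 ± 1.08 in 7d-MI + 3 (exact permutation p = 0.0286, adjusted p = 0.0552). Ldhb stood to Ldha at 3.59 to 4.44 in 7d-SHAM + 3 and at 1.10 to 2.26 in 7d-MI + 3, a difference of -1.46 in the mean log2 ratio. For Pfkm to Pfkl the ratio was 6.17 to 7.25 in 7d-SHAM + 3 and 1.52 to 2.51 in 7d-MI + 3, and 3.33 to 5.83 and 2.01 to 3.35 in 1d-SHAM + 3 and 1d-MI + 3. Hk2 to Hk1 moved upward, from 0.403 to 0.563 in 7d-SHAM + 3 to 0.684 to 0.898 in 7d-MI + 3. Hk1 remained the higher of the pair per kilobase in all 16 libraries.

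The largest differences after MI on day 7 were those of Slc16a1 to Slc16a3, at -4.41, and of Slc2a4 to Slc2a1, at -3.84. Those of the other muscle or heart forms to their counterparts were -2.15 for Pfkfb2 to Pfkfb3, -2.09 for Aldoa to Aldoc, -2.01 for Eno3 to Eno1, -1.86 for Pgam2 to Pgam1 and -1.83 for Pfkm to Pfkp. In the aldolase pair, Aldoa itself was not called after MI on day 7 and Aldoc was called higher. The receptor-gene background equals 13 to 63.9% of the Aldoc count in 7d-SHAM + 3. Among the kinases, Pdk4 fell against Pdk1 by 2.47 and against Pdk2 by 2.07, and Mpc1 stood 0.32 higher against Mpc2. After MI on day 1 the groups did not overlap for 4 pairs, which were Slc16a1 to Slc16a3 (-1.88), Pfkm to Pfkp (-1.26), Pfkfb2 to Pfkfb3 (-0.84) and Pgam2 to Pgam1 (-0.76). Between the shams the groups were apart for 6 pairs, each higher in 7d-SHAM + 3.

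**Figure D4:**
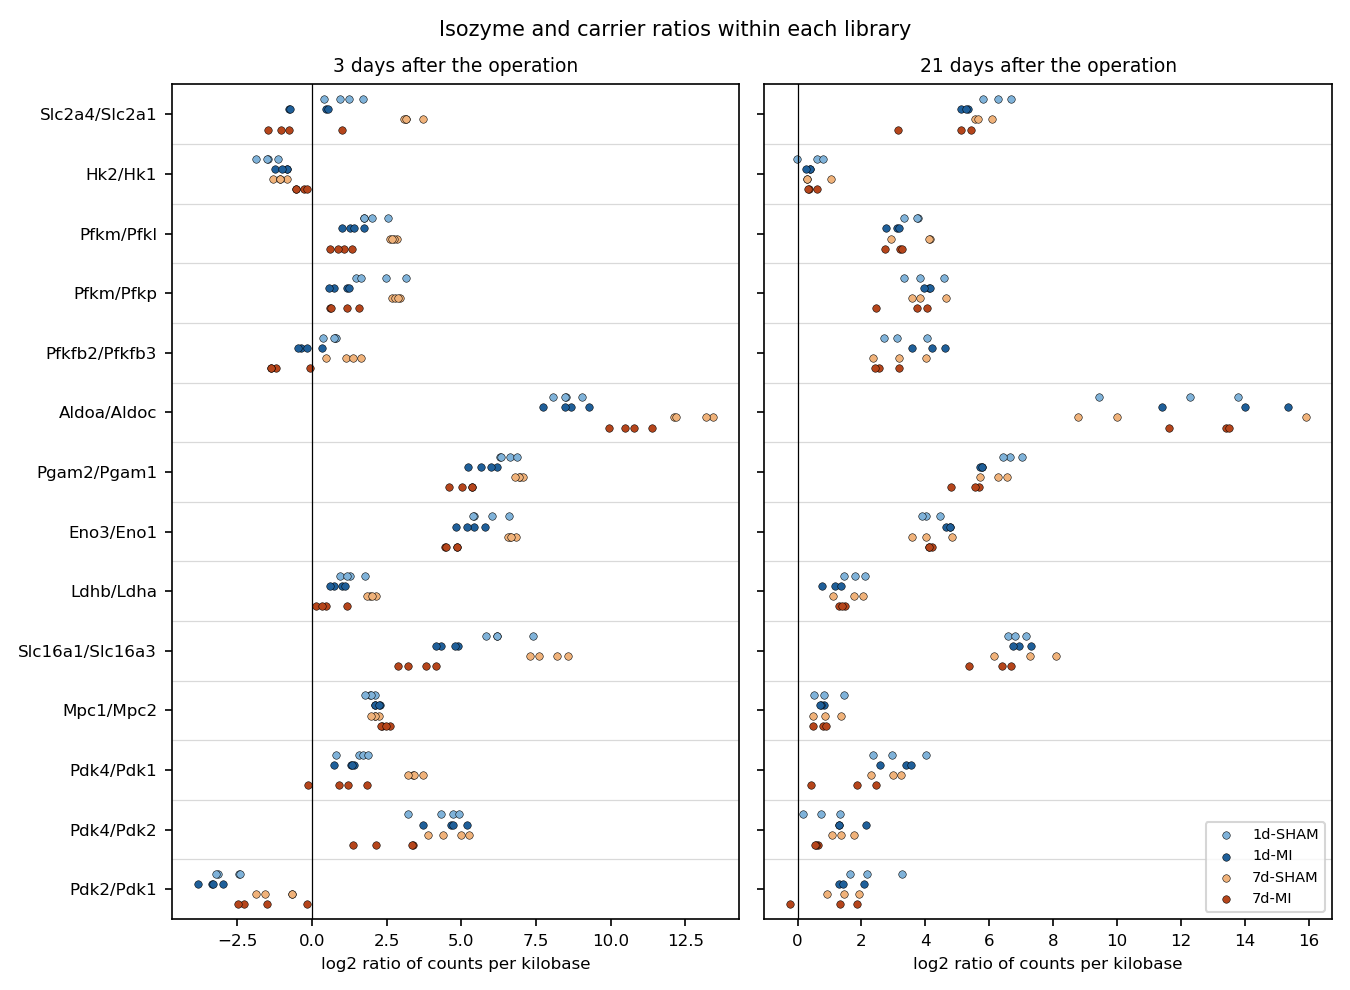
Log2 ratio of paired forms per kilobase in each library at 3 and 21 days, for 14 pairs. Points are libraries, coloured by group. At 3 days the 7d-SHAM + 3 and 7d-MI + 3 points are apart for 13 of the 14 pairs, 11 of them lower in 7d-MI + 3.

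Other genes of glucose use were read from lists drawn up beside the 37. In 7d-MI + 3 against 7d-SHAM + 3, 19.8% of all genes were called higher and 14.2% lower. Of 14 glycogen genes, 0 were higher and 8 lower after MI on day 7, with a median log2 fold change of -0.62 against 0.0823 over all genes. They included Phkb (-0.72, adjusted p = 0.000109), Ppp1r3c, which targets a phosphatase to glycogen (-1.15, adjusted p = 0.000198), and Phkg1 (-2.72, adjusted p = 0.000372). Of 14 genes of the pentose phosphate and hexosamine pathways, 6 were higher and 0 lower, among them Pgm3 (1.20), Gfpt1, the entry enzyme of the hexosamine pathway (1.10), and G6pdx, that of the pentose phosphate pathway (1.46). Of 18 other isozymes and carriers, 6 were higher and 2 lower, led by Eno2, the neuronal enolase (4.58, adjusted p = 1.68e-07), and Slc2a12 (-1.35). Eno2 stood at 0.124 to 0.333 CPM in 7d-SHAM + 3 and 2.93 to 7.37 in 7d-MI + 3.

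Fbp2, the muscle fructose bisphosphatase, was lower after MI on day 7 (-2.36) and on day 1 (-1.34, adjusted p = 0.00237). Of the 8 pyruvate dehydrogenase phosphatases and gluconeogenic enzymes, 1 was higher (Pcx, 0.81) and 2 lower (Fbp2 and Pdp1, -0.85) after MI on day 7. Of 12 regulators of glucose use, 4 were higher and 4 lower, led by Myc (2.42) and Klf15, an inducer of Slc2a4 (-2.13). Of 13 hypoxia-inducible genes outside glycolysis, 5 were higher and 3 lower, beside 19.8% and 14.2% of all genes. The 3 called genes of smallest p, P4ha1 (1.67), Ndrg1 (0.67) and Adm (1.19), were all higher. After MI on day 1, 4.10% of all genes were called higher and 4.36% lower. The 13 hypoxia-inducible genes then had 1 higher (Bnip3, 1.05) and 1 lower (Mxi1, -0.70). The glycogen list had 0 higher and 3 lower, and the pentose phosphate and hexosamine list none called.

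At 21 days, 0 of the 37 genes were called in any of the 5 comparisons. The whole table gave few calls as well, 0.0325% of 24646 genes for 7d-MI against 1d-MI, 0.0162% for 1d-MI against 1d-SHAM and 0 for the others. At an unadjusted p under 0.05 there were 7 of the 37 for 7d-MI against 7d-SHAM, 13 for 1d-MI against 1d-SHAM, 3 for 7d-MI against 1d-MI, 0 between the shams and 2 for the difference between the ages. In the same order this held for 16.7, 14.6, 6.52, 1.79 and 3.76% of all genes. DESeq2 called 1 of the 37 for 7d-MI against 7d-SHAM, where it called 4.17% of all genes, and 0 in the other comparisons. The biological coefficient of variation was 0.567, against 0.331 at 3 days.

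In 1d-MI + 21 against 1d-SHAM + 21 the libraries did not overlap for 23 of the 37 genes, each higher after MI, 62.2% of the list against 15.6% of all genes. The median log2 fold change was 0.703 over the list and -0.111 over all genes. The 20 most abundant genes took 54.7 to 88.3% of the counts in 1d-SHAM + 21 and 37 to 69.2% in 1d-MI + 21, and the share of the 37 genes was 0.202 to 0.582% and 0.570 to 1.14%. The part of these shares in the shift was not tested. In 7d-MI + 21 against 7d-SHAM + 21 the libraries were apart for 4 genes, Pdk3, Slc2a1, Pfkp and Pgam1, each higher after MI, against 5.83% of all genes. In all, 9 genes were apart between the infarcted groups, 2 higher and 7 lower in 7d-MI + 21 (8.90% and 7.37% of all genes), and 1 between the shams, Pfkfb4 (2.65% of all genes higher in the older shams).

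The smallest p-values fell on few genes. For MI on day 1 the first was Pfkfb2, which was 38.3, 17 and 30.2 CPM in the day-1 shams, 87.1, 63.7 and 45.6 after MI on day 1, 45.2, 29.8 and 25.7 in the day-7 shams and 47.4, 36.6 and 36.1 after MI on day 7. All 1d-MI + 21 libraries were above all 1d-SHAM + 21 libraries, and the log2 fold change was 1.20 ± 0.37 (SE), adjusted p = 0.284. Slc2a1 was 5.22, 7.1 and 4.33 CPM in the day-1 shams, 9.28, 10.9 and 11.5 after MI on day 1, 8.01, 4.5 and 5.77 in the day-7 shams and 10.2, 8.74 and 8.6 after MI on day 7. Infarcted libraries were above the shams of their age at both ages, by 0.93 ± 0.31 (SE), adjusted p = 0.288 on day 1 and 0.59 ± 0.31 (SE), adjusted p = 0.336 on day 7. The next was Hk1, at 1.32 ± 0.45 (SE), adjusted p = 0.289 after MI on day 1.

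For MI on day 7 the first was Pdk3, which was 3.61, 2.94 and 3.61 CPM in the day-1 shams, 2.73, 3.86 and 3.69 after MI on day 1, 3.5, 2.29 and 2.84 in the day-7 shams and 7.41, 4.33 and 5.92 after MI on day 7. The 7d-MI + 21 libraries lay above every other. Its log2 fold changes were 1.03 ± 0.32 (SE), adjusted p = 0.221 against 7d-SHAM + 21, 0.78 ± 0.32 (SE), adjusted p = 0.667 against 1d-MI + 21, and 1.02 ± 0.45 (SE), adjusted p = 0.9999 for the difference of the MI effects. Pfkp was 34.3, 20.4 and 37.6 CPM in the day-1 shams, 71.9, 42.5 and 48.1 after MI on day 1, 37.9, 36 and 27.2 in the day-7 shams and 127, 40.5 and 68.7 after MI on day 7, with 1.23 ± 0.41 (SE), adjusted p = 0.232 after MI on day 7. Pgam1 was the third of that comparison, at 1.24 ± 0.51 (SE), adjusted p = 0.264.

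Between the infarcted groups Pfkfb3 was 2.4, 2.7 and 3.67 CPM in the day-1 shams, 3.68, 3.62 and 3.97 after MI on day 1, 2.88, 3.42 and 5.24 in the day-7 shams and 8.51, 4.25 and 6.99 after MI on day 7. The infarcted groups were apart in it, at 0.81 ± 0.35 (SE), adjusted p = 0.707, as they were for Pdk4, at -1.02 ± 0.44 (SE), adjusted p = 0.711. For the difference of the MI effects Slc16a1 was 192, 171 and 158 CPM in the day-1 shams, 328, 269 and 252 after MI on day 1, 257, 243 and 167 in the day-7 shams and 126, 208 and 214 after MI on day 7. It was higher in 1d-MI + 21 than in 1d-SHAM + 21 without overlap, and the difference came to -0.99 ± 0.47 (SE), adjusted p = 0.9999, with Pdk4 at -1.26 ± 0.62 (SE), adjusted p = 0.9999. Between the shams, Pfkfb4 gave 0.64 ± 0.37 (SE), adjusted p = 0.9999, Ldha 0.69 ± 0.51 (SE), adjusted p = 0.9999 and Pdk1 0.48 ± 0.38 (SE), adjusted p = 0.9999.

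Pfkfb4 was 1.07, 1.09 and 1.2 CPM in the day-1 shams, 1.44, 1.44 and 1.36 after MI on day 1, 2.11, 1.63 and 1.47 in the day-7 shams and 2.46, 1.2 and 2.29 after MI on day 7. The shams of day 7 stood wholly above those of day 1. The receptor-gene background equals 1.53 to 86.1% of the Pfkfb4 count in the day-7 shams and 15.8 to 37.3% in the day-1 shams. Ldha was 84.9, 86.2 and 63.9 CPM in the day-1 shams, 274, 187 and 139 after MI on day 1, 240, 96.3 and 41.6 in the day-7 shams and 159, 114 and 234 after MI on day 7. Here replicate 1 of 7d-SHAM + 21 was above the others of its group, as it was for most of the 37 genes, with Pfkl at 58.4 CPM against 13.5 and 8.75 and Hk1 at 70.4 against 29.4 and 28.8. Without that library, 16 of the 37 genes were called higher and 0 lower in 7d-MI + 21 against 7d-SHAM + 21, among 3151 higher and 2752 lower of all genes. With it there were 0. Ribosomal RNA genes took 14.4% of the counts in replicate 1, 32.6% in replicate 2 and 22.9% in replicate 3 of 7d-SHAM + 21. In the same order the 20 most abundant genes took 56.3, 65.2 and 83.8%, and the 37 genes 0.901, 0.417 and 0.146%. In 7d-MI + 21 the 37 genes took 0.599 to 1.14%. The calls in that comparison therefore depend on whether replicate 1 is kept, and the part of these measures was not tested.

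**Figure D5:**
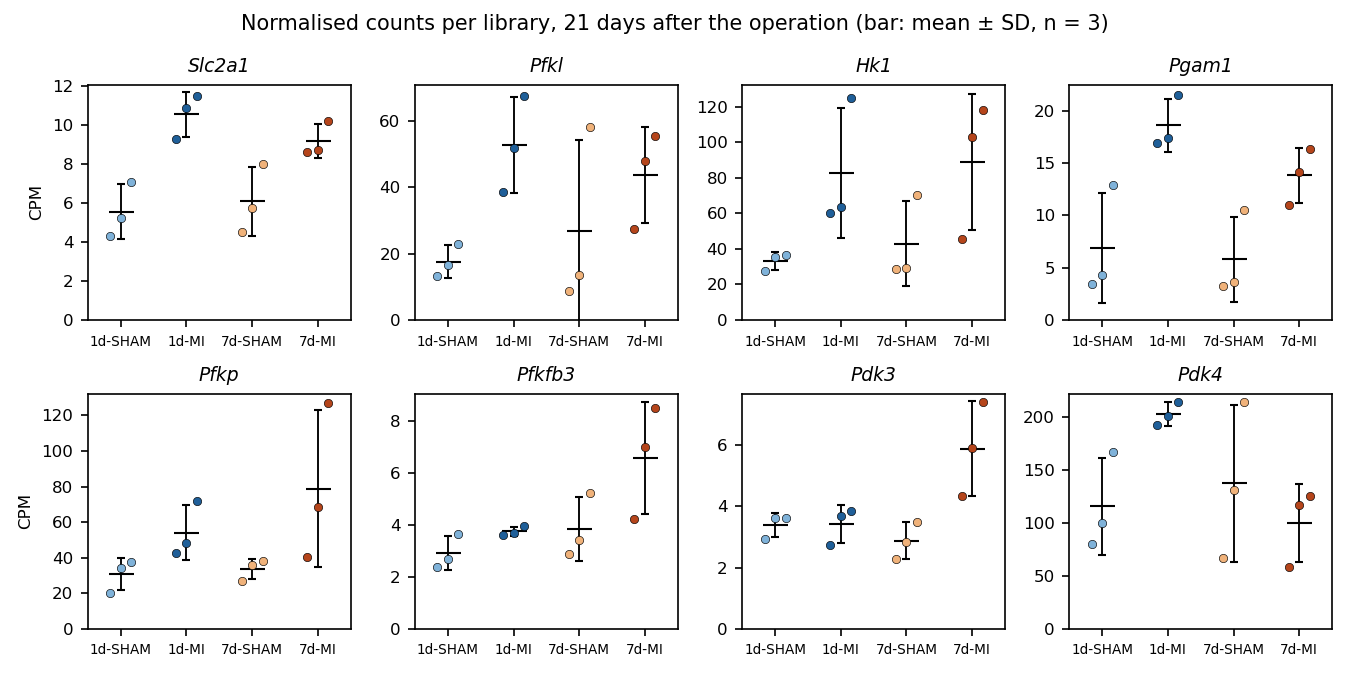
CPM at 21 days in every library for Slc2a1, Pfkl, Hk1, Pgam1, Pfkp, Pfkfb3, Pdk3 and Pdk4. Points are libraries and bars are the mean ± SD (n = 3). Replicate 1 of 7d-SHAM + 21 lies above the other shams for Pfkl (58.4 against 13.5 and 8.75), and Pdk3 is 4.33 to 7.41 in 7d-MI + 21 against 2.29 to 3.5 in 7d-SHAM + 21.

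The paired forms at 21 days gave 0 of 56 ratios past the threshold, and with 3 libraries against 3 the smallest p an exact two-sided permutation test can give is 0.1, which 14 of them reached. Slc2a4 stood to Slc2a1 at a mean log2 ratio of 6.25 ± 0.43 (SD, n = 3) in the day-1 shams, 5.23 ± 0.11 after MI on day 1, 5.76 ± 0.29 in the day-7 shams and 4.56 ± 1.24 after MI on day 7. The libraries of the infarcted groups were below those of the shams of their age (exact permutation p = 0.1 at each age, adjusted p = 0.4). Hk2 was above Hk1 per kilobase in the mean of every group, at 0.35 to 0.55 on the log2 scale, whereas Hk1 was the higher at 3 days. The kits differed between the follow-ups, and this change was not tested. The group means of the log2 ratio of Mpc1 to Mpc2 also lay apart, at 1.95 to 2.44 at 3 days and 0.72 to 0.93 at 21 days. Macrophage and neutrophil markers summed to 265 to 278 CPM in 7d-MI + 21 and 120 to 187 in 7d-SHAM + 21, and fibroblast markers to 3110 to 4970 and 965 to 1820. Atrial markers summed to 2170 to 4570 CPM in 7d-MI + 21 and 90.6 to 981 in 7d-SHAM + 21, and brown and white adipocyte markers to 17.3 to 26.2 and 5.98 to 13.7. The part of these cells in the levels of the 37 genes at 21 days was not tested.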

How the data were processed

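Left ventricular RNA of the remote zone was sequenced in 28 libraries, 16 at 3 days (TruSeq stranded total RNA kit) and 12 at 21 days (ScriptSeq v2 kit). The deposited tables hold whole-number read counts per gene, made by the authors and not normalized, and these counts were used here. Of the RPKM and CPM columns deposited beside them, only the gene lengths that they imply were used. The submitters' processing notes name TopHat2 2.0.11, Bowtie2 2.2.2, Cufflinks 2.2.1 and the genome build GRCm38. How and with which annotation release reads were counted, and whether by strand, is not given in the sources used here, so reads of genes that overlap on opposite strands may not be told apart. Gene positions are those of the deposited tables.

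Each follow-up was fitted on its own with its 4 groups in edgeR 4.0.16 (limma 3.58.1, R 4.3.3). Genes were kept by a count minimum of 10 and a total minimum of 15, libraries were scaled by TMM, and quasi-likelihood tests were adjusted by Benjamini-Hochberg over all genes tested. A gene is called at an adjusted p under 0.05. The SE is the log2 fold change divided by the square root of the F statistic. DESeq2 1.42.0, limma-voom, other scalings and filters, limma-voom with a random block for the animal number prefix and the omission of single libraries were alternatives. The steps were tested on simulated data. Ratios of paired forms add 0.5 to each count.

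The 37 genes and all lists were chosen with earlier results of these data known. Genes called in a comparison, or the 3 of smallest p where fewer than 3 were called, are given with their statistics. Values in every library are given for genes called in 2 or more comparisons of a follow-up and, at 21 days, for the 2 of smallest p in each comparison. Of the other lists, at most the 3 called genes of smallest p are named. Genes named to show libraries that stood apart were chosen after their values were seen.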

Additional observations from a re-analysis of the deposited data

Results flagged for a closer look

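In 148 sets made of 1 gene and 1 group of 4 libraries, a library was picked out 9 times. In these its gap to the nearest other, divided by the range of the group, exceeded Dixon's 95% critical value for 4 samples. Chance alone flags about 5% of such sets, or 7.4 of them. Replicate 3 of 7d-MI + 3 accounted for Slc2a4 at 26.8 CPM (9.19 to 9.59 in the others), Hk2 at 95.5 (54.2 to 57.5), Pfkfb2 at 9.5 (5.23 to 5.85), Mpc2 at 38.8 (34.8 to 35.1), Pdk2 at 23.7 (6.38 to 9.18) and Pfkfb3 at 10.4 (14.2 in each of the others). That library also had the highest cardiomyocyte marker sum of its group, 65100 CPM, and what sets it apart was not tested. Replicate 1 of 7d-SHAM + 3 accounted for Eno1 at 15.6 CPM (22.9 to 23.3), Ldha at 272 (340 to 350) and Pdk2 at 19 (15.4 to 15.7).

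The effect of MI at 3 days differed between operation on day 7 and on day 1, by the interaction test in edgeR, for 10 of the 37 genes. The difference, day 7 minus day 1 on the log2 scale, was 2.13 for Slc16a3, 2.11 for Aldoc, 2.07 for Slc2a1, 0.85 for Eno1 and 0.80 for Pdk3. It was -2.89 for Pdk4, -0.93 for Pdhb, -0.88 for Pdha1, -0.66 for Mpc2 and -0.59 for Mpc1. Of these, Slc2a1 and Slc16a3 were called higher after MI at both ages, and the other 8 were called after MI on day 7 and not after MI on day 1.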

How the results depend on the processing

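Of 828 refits of a named gene at 3 days under an alternative other than leaving out a library, 764 kept their direction and side of the threshold and 64 lost the call. Of 648 that left out a library, 560 kept them and 88 lost the call. For MI on day 1 at 3 days, where 4 genes were called, the 2 groups fitted alone gave 1, the animal number prefix as a random block 1, 1d-SHAM + 3 with prefix 1078 alone 1 and with prefix 1103 alone 13 (8 higher, 5 lower). Between the shams (15 called), the prefix as a random block and prefix 1103 alone each gave 5, while prefix 1078 alone added more calls than it lost. For the difference between the ages (10 called), upper-quartile scaling gave 16, a mean count of at least 50 gave 16 and the prefix as a random block gave 5. The use of 1 prefix alone was chosen after seeing the data. Leaving out 1 library gave 20 to 27 calls for 7d-MI against 7d-SHAM, 2 to 7 for 1d-MI against 1d-SHAM, 8 to 18 between the shams, 17 to 20 between the infarcted groups and 7 to 16 for the difference between the ages. The counts in this section stand without the share of all genes called under the same alternative. They therefore cannot tell a change in these genes from a change over all genes.

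At 21 days, where 0 of the 37 genes were called, DESeq2 gave 1 for 7d-MI against 7d-SHAM and the 2 groups fitted alone gave 3 for 1d-MI against 1d-SHAM. Leaving out 1 library gave 0 to 16 for 7d-MI against 7d-SHAM and 0 throughout the other comparisons. The log2 fold change of Ldha between the shams ran from -0.19 to 1.04 when 1 library was left out, and turned negative without 7d-SHAM + 21 replicate 1. A replicate block called 0 of the 37 genes in every comparison, and the replicate numbers share only a number, since correlations of same-numbered libraries ran from -0.589 to 0.523. In the cases above the cause was not tested. The ratios of paired forms gave 0 calls under every omission. Whether depth limits the calls was not tested. The receptor-gene background was at most 0.424% of the count of the median gene at 3 days and 2.19% at 21 days. For the genes of low count it reached 313% for Aldoc, 86.1% for Pfkfb4, 80.2% for Pfkfb1 and 55.3% for Slc16a3, and it exceeded the Aldoc count in 3 libraries at 21 days.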
